A study of Homo sapiens with 30 samples.

Results

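The 10 genes described here, SNHG1, SNHG3, SNHG4, SNHG8, SNHG12, SNHG15, SNHG16, GAS5, ZFAS1 and DANCR, are noncoding genes whose introns hold small nucleolar RNAs (snoRNAs). They were taken by symbol from the count tables, which list 61578 genes, and all 10 were found and passed the filter on low counts. The 10 were chosen with earlier results of these data known. Poly(A) RNA had been sequenced from 30 libraries of human cells labelled A549 (a lung adenocarcinoma line), in 15 groups of 2. In 7 lines the endogenous RPB1, the largest subunit of RNA polymerase II, carries a degron, a tag through which the small molecule dTAGV-1 triggers degradation of the protein. The degron line has no replacement RPB1 and was treated with 100 nM dTAGV-1 for 12 h. The other 6 lines also carry an RPB1 complement switched on by doxycycline (Dox), with the substitution Y1F, S2A, T4V, S5A or S7A in the heptad repeats of its C-terminal domain (CTD), or with the wild-type CTD (WT line). These 6 were treated with Dox at 2 µg/mL for 24 h and then with 100 nM dTAGV-1 for 12 h, so treated WT and degron cells also differ in Dox. Each of the 7 lines has an untreated group, and the 15th group, Mock, was untreated cells labelled WT in genotype with no degron. The labels do not say whether the lines are single clones or whether the 2 libraries of a group came from separate cultures, so p-values measure the spread between libraries, which may be technical.

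A snoRNA guides the 2′-O-methylation (box C/D family) or pseudouridylation (box H/ACA family) of ribosomal RNA, or its cleavage, and in vertebrates most are cut out of the introns of a host transcript made by RNA polymerase II. The spliced exons of many noncoding hosts are exported, loaded with ribosomes that meet an early stop codon, and degraded by nonsense-mediated decay. These spliced RNAs therefore turn over fast. The counts used here are per gene, so reads of unspliced or intron-retaining RNA may be among them. Exons annotated by GENCODE, all transcripts joined, cover 95.6% of the span of SNHG1, 92.8% of SNHG12 and 92.6% of SNHG15. They cover at least 70.7% in SNHG3, SNHG8, SNHG16 and GAS5, but 41.4% in SNHG4, 28.7% in DANCR and 12.8% in ZFAS1. Spliced and unspliced host RNA were not counted apart. Many hosts start at a pyrimidine run, the 5′ terminal oligopyrimidine (5′TOP) motif that they share with the ribosomal protein genes, although only a part of the hosts carry it at the annotated start.

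The hosts differ in what they carry. In the RefSeq annotation (GRCh38.p14) 37 snoRNA genes lie in their spans: 11 in GAS5, 9 in SNHG1, 4 in SNHG12, 3 each in SNHG16 and ZFAS1, 2 each in SNHG3 and SNHG4, and 1 each in SNHG8, SNHG15 and DANCR. Names of the box C/D family (SNORD) made up 25 of them and names of the box H/ACA family (SNORA) 11. GENCODE 29 (GRCh38) places SNHG1, the U22 host gene, at chr11:62851988-62855914 on the minus strand with up to 11 exons. SNHG3, host of the U17 snoRNAs, lies at chr1:28505980-28510892 on the plus strand with up to 3 exons. SNHG4, host of U19, is at chr5:139274102-139284899 on the plus strand, and GAS5, named for its accumulation in growth-arrested cells, is at chr1:173863900-173868882 on the minus strand with up to 13 exons.

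The bases at which these transcripts start are shown because the 5′TOP motif lies there. Each line gives 20 bases of RefSeq sequence (GRCh38.p14), 5′ to 3′ on the gene's own strand, with the first 10 transcribed bases in capitals, for the 9 genes that the promoter table holds.
SNHG1: gagattcgttCTCATTTTTC
SNHG3: gtgagtttctGATTCTCTAA
SNHG4: ctcccggctgCCCTTTCCCC
SNHG8: ctcggcctttCACATTCGGG
SNHG12: gcttcagcgcCCTTTCTCCC
SNHG16: gggcggtctcGCGTTCTTTT
GAS5: tcatgaattcAGATGTGTTT
ZFAS1: gccattcgttCTTTCGCGTC
DANCR: tgcgcgccccGCCCTTGCCC
A C followed by 4 pyrimidines from the annotated first base was found in SNHG4, SNHG12 and ZFAS1, which is 33.3% of these 9 against 4.1% of all 35116 promoters in the table. This pattern was counted after the sequences had been seen, and the RefSeq start of each of the 9 differs from the gene's GENCODE start, by little for SNHG4 and SNHG16, so the window depends on the annotation.

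Whole promoters are shown for 3 members that stand at the extremes of the results: SNHG3 and SNHG4, which had the lowest median log2 changes, and ZFAS1, which was called in no line. Each window runs from 250 bases before to 50 bases after the start, with motif matches in capitals, of which the SNHG3 window holds none.
SNHG3, chr1:28505693-28505992, plus strand: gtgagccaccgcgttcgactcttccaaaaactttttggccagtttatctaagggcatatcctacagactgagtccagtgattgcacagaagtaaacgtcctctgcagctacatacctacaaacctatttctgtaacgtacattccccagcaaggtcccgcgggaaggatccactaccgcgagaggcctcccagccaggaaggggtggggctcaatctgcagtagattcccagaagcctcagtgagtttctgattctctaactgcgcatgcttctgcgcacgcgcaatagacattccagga
SNHG4, chr5:139273851-139274150, plus strand: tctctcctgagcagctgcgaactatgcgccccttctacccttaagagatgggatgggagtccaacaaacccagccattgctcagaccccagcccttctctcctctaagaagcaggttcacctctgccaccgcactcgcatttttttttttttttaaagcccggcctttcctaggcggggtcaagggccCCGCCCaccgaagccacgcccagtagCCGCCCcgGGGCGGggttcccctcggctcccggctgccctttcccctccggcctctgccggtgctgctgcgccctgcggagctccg
ZFAS1, chr20:49278392-49278691, plus strand: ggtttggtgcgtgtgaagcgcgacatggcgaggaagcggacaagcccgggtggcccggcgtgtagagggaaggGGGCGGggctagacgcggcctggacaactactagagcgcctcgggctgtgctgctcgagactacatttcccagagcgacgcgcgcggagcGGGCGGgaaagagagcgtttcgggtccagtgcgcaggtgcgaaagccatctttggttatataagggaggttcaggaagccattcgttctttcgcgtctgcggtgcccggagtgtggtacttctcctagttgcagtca
The letters searched on both strands were CACGTG (the E-box core, which MYC and related factors bind), TATAAA (the core of the TATA box), CCAAT (which NF-Y binds) and GGGCGG (the GC box); no string of the 4 contains another. CACGTG was in 0 of the 9 windows and in 7.3% of all promoters, TATAAA in 1 of 9 (SNHG1) and 11.5%, CCAAT in 2 of 9 and 34.6%, and GGGCGG in 7 of 9 and 45.0%. These matches describe the windows only.

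Library totals were 10866089 to 17912802 counts. The 28 libraries of the 7 lines went against their cell line label. The 13 A549 and lung epithelial markers summed to 86.4 to 183 CPM (counts scaled to library size, with TMM factors) in the 14 treated libraries and 78.4 to 151 CPM in the 14 untreated libraries, against 27800.2 to 27898 CPM in the Mock libraries. KRT7 was at 0 to 0.16 CPM in the 28 libraries and at 1854 and 2026 CPM in Mock, and the 9p21 gene CDKN2A was at 0 in both Mock libraries and present in all 28. Not all of the 13 markers went this way. NKX2-1 was at 1.20 to 10.6 CPM in the 28 libraries and at 0 and 0.31 CPM in Mock. SFTPB, SFTPC and NAPSA were at most 1.95 CPM in any library and did not separate the 28 libraries from Mock. The 5 markers of HEK293 or neuronal cells summed to 169 to 1127 CPM in treated and 958 to 1823 CPM in untreated libraries, against 12.4 to 14.9 CPM in Mock. Of these, PAX2 overlapped, at 0.59 to 5.85 CPM in the 28 libraries and 0.67 and 0.82 CPM in Mock. Sums of the immune, endothelial and fibroblast markers were at most 7.11, 3.53 and 73.5 CPM in treated, 3.85, 0.245 and 65.6 CPM in untreated and 0.575, 0.48 and 10.2 CPM in Mock libraries. The part of these markers in the results was not tested, and no cell type name is given to the 28 libraries. POLR2A mRNA, which encodes RPB1, was higher after treatment in the WT line by 1.38 ± 0.27 on the log2 scale (edgeR's quasi-likelihood test, Benjamini-Hochberg adjusted p = 0.0034), but an mRNA does not check degradation of the protein.

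Levels of different genes are compared in TPM, the authors' transcript values scaled for gene length and library total. In the 14 untreated libraries of the 7 lines SNHG1 and GAS5 were the most abundant hosts, with medians of 168 TPM (range 112 to 232) and 149.7 TPM (125 to 176), and their ranges overlapped. SNHG3 followed at 100.1 TPM (79.2 to 121), SNHG16 at 77.3 TPM (69.5 to 119.7), SNHG15 at 66.5 TPM (56.3 to 80.9) and SNHG4 at 49.97 TPM (34.01 to 60.9). DANCR, SNHG12 and SNHG8 had medians of 26.2, 23.8 and 18.6 TPM, and ZFAS1 was lowest at 9.30 TPM (5.91 to 11.1). In this order the ranges of neighbours overlapped, apart from those of GAS5 and SNHG3 and of SNHG8 and ZFAS1, which were separate. In treated libraries the order differed: the highest median was that of GAS5 at 99.7 TPM, ahead of SNHG1 at 81.95 TPM, while SNHG4 was at 11.9 TPM and SNHG3 at 35.8 TPM.

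**Figure D1:**
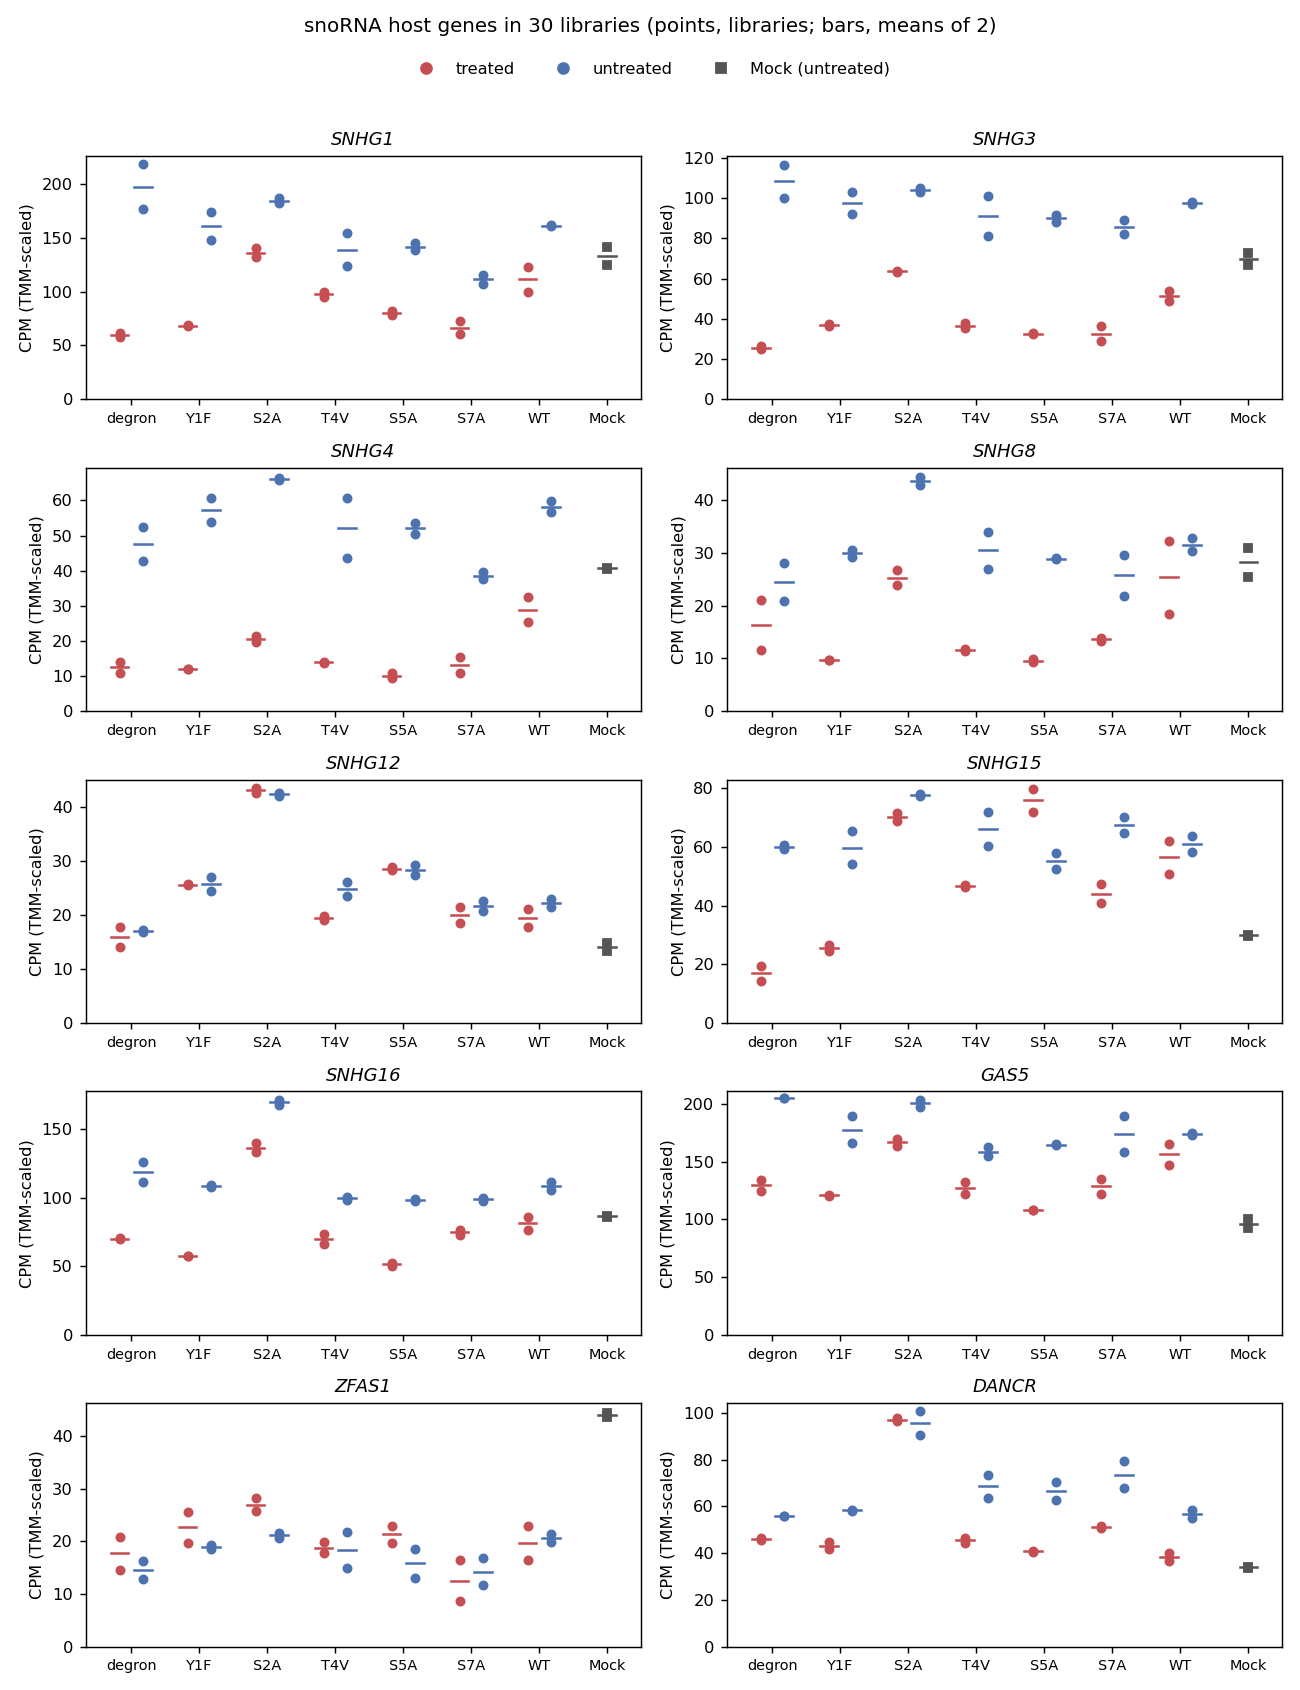
Level of each snoRNA host gene in every library, in CPM on a linear axis, by line. Treated libraries (red, left) are beside untreated libraries (blue, right), with Mock last, and each point is 1 library. SNHG3, SNHG4, SNHG1, SNHG16 and GAS5 have both treated points below both untreated points in all 7 lines, while the points of ZFAS1 mix. GAS5 is so separated in WT although its change there was not called. The share of all genes so separated was not counted.

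Together the 10 transcripts took a smaller share of the poly(A) RNA after treatment in every line. Their summed level was 305 and 299 TPM in treated degron cells, against 689 and 795 TPM in untreated degron cells. It was 578 and 582 TPM in treated S2A cells, against 828 and 835 TPM in untreated S2A cells, and 526 and 485 TPM in treated WT cells, against 706 and 696 TPM in untreated WT cells. In all 7 lines both treated libraries lay below both untreated ones, and the Mock libraries had 378 and 360.1 TPM. In bulk RNA, fewer cells that express a gene and less of its RNA per cell cannot be told apart.

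The question of each line's main comparison was how expression changed when the endogenous RPB1 was removed, with or without a CTD mutant in its place. In the degron line 8 of the 10 hosts fell and 0 rose, where 21.4% of the 19982 genes tested fell and 23.1% rose. In the Y1F line 8 fell and 0 rose, against 21% and 23.1% of all genes. In the S2A line 6 fell and 0 rose, against 18.2% and 17%, and in the T4V line 9 fell and 0 rose, against 14% and 14.8%. In the S5A line 7 fell and 1 rose, against 24.2% and 25.5% of all genes. In the S7A line 8 fell and 0 rose, against 17.1% and 17.8%, and in the WT line 5 fell and 0 rose, against 1.84% and 3.09%. The median log2 change of the 10 was -0.71 in the degron line, -1.07 in Y1F, -0.29 in the S2A line, -0.51 in T4V, -0.76 in the S5A line, -0.56 in S7A and -0.36 in WT, where the median of all genes tested lay between -0.01 and 0.05. Calls are those of edgeR's quasi-likelihood test at an adjusted p under 0.05, and the 2 libraries a group limit their precision. Because the 10 were chosen with earlier results of these data known, the shares of all genes are a reference only. Host genes as a class were not tested. In each line's own 4 libraries 19.6%, 24.6%, 29.8%, 9.0%, 36.2%, 8.4% and 0.0% of all genes fell, in the order of lines below. There 6 hosts fell in the degron line, 8 in Y1F, 6 in S2A and 4 in T4V. In S5A 7 fell, in S7A 5 and in WT 0. Leaving out 1 library took the count to 6 in the degron line (without its untreated replicate 1), to 3 in S2A (without treated replicate 2 or untreated replicate 1) and to 3 in WT (without treated replicate 2 or untreated replicate 1). For these fits the shares of all genes are not given here.

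**Figure D2:**
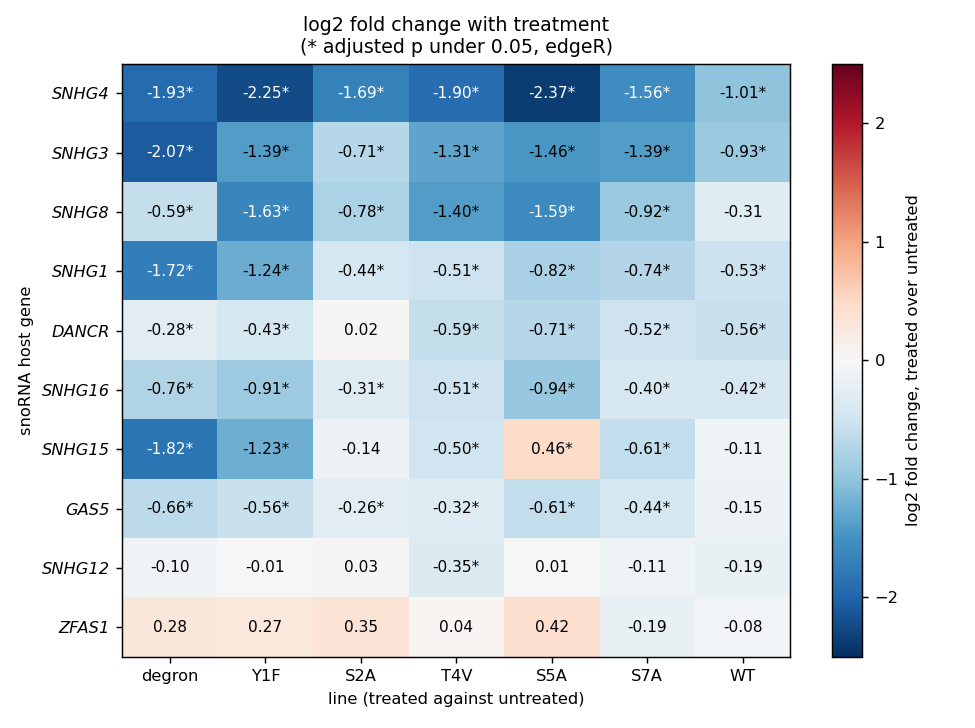
Log2 fold change (treated over untreated, TMM scaling) of each host gene (rows) in each line (columns), printed and coloured blue for lower and red for higher, with an asterisk at an adjusted p under 0.05. SNHG4 and SNHG3 carry an asterisk in all 7 lines, with -1.93 and -2.07 in the degron line, and the 1 red cell with an asterisk is SNHG15 in S5A, at 0.46, which turns negative under the other scalings.

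SNHG4 and SNHG3, hosts of box H/ACA snoRNAs, had the lowest median log2 changes of the 10 over the 7 lines. SNHG4 was at 10.7 and 9.33 CPM in treated cells, against 50.5 and 53.6 CPM in untreated cells of the S5A line. In the Y1F line it was at 12.1 and 12.1 CPM in treated cells, against 53.97 and 60.6 CPM in untreated cells, and in the degron line at 14.1 and 10.9 CPM in treated cells, against 42.8 and 52.4 CPM in untreated cells. These 3 lines lost most of the transcript, with no overlap of the groups. Here and below, the share of all genes without overlap was not counted. It was at 19.7 and 21.5 CPM in treated cells, against 65.9 and 66.5 CPM in untreated cells of the S2A line, and at 13.8 and 14.1 CPM in treated cells, against 43.8 and 60.8 CPM in untreated cells of the T4V line. In the S7A line SNHG4 was at 15.3 and 10.8 CPM in treated cells, against 37.8 and 39.5 CPM in untreated cells. In the WT line it was at 32.4 and 25.3 CPM in treated cells, against 56.6 and 59.8 CPM in untreated cells, also without overlap. SNHG4 fell in all 7 lines, with log2 changes of -2.37 ± 0.18 in S5A (edgeR's quasi-likelihood test, Benjamini-Hochberg adjusted p = 9.6e-10), -1.93 ± 0.17 in the degron line (adjusted p = 1.3e-08) and -1.01 ± 0.16 in WT (adjusted p = 0.00053). In the other 4 lines its log2 changes were -2.25 in Y1F, -1.69 in the S2A line, -1.90 in T4V and -1.56 in S7A.

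SNHG3, whose introns carry the U17 snoRNAs used in cutting the precursor of 18S rRNA, was at 25.05 and 26.4 CPM in treated cells, against 100.1 and 116 CPM in untreated cells of the degron line. It was at 37.5 and 36.7 CPM in treated cells, against 92.2 and 103 CPM in untreated cells of the Y1F line, and at 63.8 and 63.3 CPM in treated cells, against 105 and 103 CPM in untreated cells of the S2A line. The groups did not overlap in any line. SNHG3 was at 35.5 and 37.7 CPM in treated cells, against 81.1 and 101 CPM in untreated cells of the T4V line, and at 32.2 and 32.9 CPM in treated cells, against 91.7 and 88.02 CPM in untreated cells of the S5A line. It was at 36.5 and 28.8 CPM in treated cells, against 88.9 and 82.1 CPM in untreated cells of the S7A line, and at 53.6 and 48.9 CPM in treated cells, against 97.8 and 97.2 CPM in untreated cells of the WT line. By edgeR's quasi-likelihood test SNHG3 fell in all 7 lines, with log2 changes of -2.07 ± 0.12 in the degron line (adjusted p = 3.1e-11), -1.39 in Y1F, -0.71 ± 0.12 in the S2A line (adjusted p = 7.4e-05), -1.31 in T4V, -1.46 in the S5A line, -1.39 in S7A and -0.93 ± 0.12 in WT (adjusted p = 3.8e-05). In no line did leaving out 1 library end a call of SNHG3 or SNHG4, but in the WT line's own 4 libraries both missed the threshold.

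The box C/D hosts SNHG1 and SNHG16 also fell in all 7 lines. SNHG1, whose spliced RNA is known as a short-lived transcript of the U22 locus, was at 61.7 and 58.03 CPM in treated cells, against 177 and 218 CPM in untreated cells of the degron line. It was at 67.7 and 68.6 CPM in treated cells, against 148 and 174 CPM in untreated cells of the Y1F line, and at 81.7 and 78.7 CPM in treated cells, against 145 and 138 CPM in untreated cells of the S5A line. In the other 4 lines the treated libraries were also below: SNHG1 was at 132 and 141 CPM in treated cells, against 186 and 182 CPM in untreated cells of the S2A line, and at 122 and 99.9 CPM in treated cells, against 162 and 160.3 CPM in untreated cells of the WT line. It was at 99.98 and 94.95 CPM in treated cells, against 124 and 154 CPM in untreated cells of the T4V line, and at 72.3 and 60.9 CPM in treated cells, against 116 and 107 CPM in untreated cells of the S7A line. No line showed overlap. The log2 changes were -1.72 ± 0.13 in the degron line (edgeR's quasi-likelihood test, adjusted p = 1.3e-09), -1.24 in Y1F, -0.44 in the S2A line, -0.51 in T4V, -0.82 in the S5A line, -0.74 in S7A and -0.53 ± 0.13 in WT (adjusted p = 0.015). The WT call was lost without its treated replicate 2 (-0.40, adjusted p = 0.19), untreated replicate 1 or untreated replicate 2. The S2A call was lost without treated or untreated replicate 1, and the T4V call without untreated replicate 2 (-0.35, adjusted p = 0.069).

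SNHG16, host of the SNORD1 family, was at 52.7 and 50.3 CPM in treated cells, against 98.00 and 99.5 CPM in untreated cells of the S5A line. It was at 57.9 and 57.3 CPM in treated cells, against 108 and 109 CPM in untreated cells of the Y1F line, and at 70.00 and 70.4 CPM in treated cells, against 112 and 126 CPM in untreated cells of the degron line. Replicates of each group were close, and the groups did not overlap in any line. By edgeR's quasi-likelihood test the log2 changes were -0.94 ± 0.09 in S5A (adjusted p = 2.3e-08), -0.91 in Y1F, -0.76 in the degron line, -0.51 in T4V, -0.42 ± 0.09 in WT (adjusted p = 0.0051), -0.40 in S7A and -0.31 in S2A. The call was lost in WT without treated replicate 2 (-0.35) or untreated replicate 1 (-0.39), and in S2A without treated replicate 2.

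GAS5 had log2 changes closer to 0 than those of SNHG1 in all 7 lines. It was at 125 and 135 CPM in treated cells, against 205 and 205 CPM in untreated cells of the degron line. It was at 121 and 120.3 CPM in treated cells, against 166 and 189 CPM in untreated cells of the Y1F line, and at 108 and 108 CPM in treated cells, against 165 and 165 CPM in untreated cells of the S5A line. The treated libraries were below the untreated ones in all 7 lines, in WT by little, with 147 and 166 CPM in treated cells, against 175 and 173 CPM in untreated cells. GAS5 fell in 6 lines by edgeR's quasi-likelihood test, with log2 changes of -0.66 ± 0.10 in the degron line (adjusted p = 9.7e-06), -0.61 in S5A, -0.56 in Y1F, -0.44 in S7A, -0.32 in T4V and -0.26 in S2A. In WT its log2 change was -0.15 ± 0.10 (adjusted p = 0.42), which was not called. The S2A call was lost without any 1 of its 4 libraries, the T4V call without treated or untreated replicate 2, and the S7A call without untreated replicate 1.

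DANCR, a noncoding RNA first described as a repressor of differentiation in human epidermal progenitors and host of SNORA26, was at 40.98 and 40.6 CPM in treated cells, against 70.4 and 62.6 CPM in untreated cells of the S5A line. It was at 36.8 and 40.2 CPM in treated cells, against 58.3 and 55.1 CPM in untreated cells of the WT line, with no overlap in either line. In the S2A line the groups overlapped, with 96.5 and 97.6 CPM in treated cells, against 101 and 90.5 CPM in untreated cells. DANCR fell in 6 lines by edgeR's quasi-likelihood test, with log2 changes of -0.71 ± 0.10 in S5A (adjusted p = 6e-06), -0.59 in T4V, -0.56 ± 0.10 in WT (adjusted p = 0.0018), -0.52 in S7A, -0.43 in Y1F and -0.28 in the degron line. Its log2 change in S2A was 0.02 ± 0.10, not called. The degron line's call was lost without untreated replicate 1 (-0.29) or untreated replicate 2 (-0.28), and in its own 4 libraries.

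SNHG8, a short host of SNORA24, was at 9.70 and 9.62 CPM in treated cells, against 30.6 and 29.3 CPM in untreated cells of the Y1F line. It was at 9.32 and 9.85 CPM in treated cells, against 28.99 and 28.9 CPM in untreated cells of the S5A line, and at 11.4 and 11.7 CPM in treated cells, against 33.9 and 27.04 CPM in untreated cells of the T4V line. Replicates were close in these 3 treated groups, which lay far below the untreated ones. In the degron line the replicates were far apart and the groups overlapped, with 11.5 and 20.98 CPM in treated cells, against 28.01 and 20.8 CPM in untreated cells, and in the WT line likewise, with 18.5 and 32.3 CPM in treated cells, against 32.8 and 30.3 CPM in untreated cells. By edgeR's quasi-likelihood test SNHG8 fell in Y1F (-1.63 ± 0.24 on the log2 scale, adjusted p = 1.7e-05), in S5A (-1.59), T4V (-1.40), S7A (-0.92), S2A (-0.78) and the degron line (-0.59 ± 0.23, adjusted p = 0.045). The degron line's call was lost without treated replicate 1 (-0.30, adjusted p = 0.34) or untreated replicate 1 (-0.36), the S7A call without untreated replicate 1 (-0.69), and the S2A call without treated replicate 2 or untreated replicate 1. In WT the log2 change was -0.31 ± 0.23, not called.

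SNHG15, host of SNORA9 and known for its short-lived RNA, had log2 changes of -1.82 to 0.46 over the 7 lines. It was at 14.4 and 19.6 CPM in treated cells, against 60.5 and 59.4 CPM in untreated cells of the degron line. It was at 24.5 and 26.6 CPM in treated cells, against 65.4 and 54.1 CPM in untreated cells of the Y1F line. In both lines the treated libraries were far below the untreated ones, whereas in the S5A line they were above, with 72.04 and 79.7 CPM in treated cells, against 52.4 and 58.02 CPM in untreated cells. In the S2A line SNHG15 was at 68.8 and 71.6 CPM in treated cells, against 77.4 and 77.9 CPM in untreated cells, and in the WT line the groups overlapped, with 50.8 and 62.1 CPM in treated cells, against 63.8 and 58.3 CPM in untreated cells. It was at 40.7 and 47.5 CPM in treated cells, against 70.1 and 64.6 CPM in untreated cells of the S7A line. By edgeR's quasi-likelihood test it fell in the degron line (-1.82 ± 0.14 on the log2 scale, adjusted p = 2.2e-09), Y1F (-1.23), S7A (-0.61) and T4V (-0.50), and was not called in S2A (-0.14) or WT (-0.11). It rose in S5A by 0.46 ± 0.13 (adjusted p = 0.0069). That rise depended on the scaling, at -0.28 with mitochondrial mRNAs and -0.50 with the authors' factors, and it was lost without treated replicate 2 (0.32) or untreated replicate 1 (0.38).

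SNHG12 and ZFAS1 passed the test in the fewest lines. SNHG12, host of SNORA44, SNORA61, SNORA16A and SNORD99, was at 43.5 and 42.6 CPM in treated cells, against 42.6 and 42.03 CPM in untreated cells of the S2A line, and at 25.6 and 25.6 CPM in treated cells, against 26.9 and 24.5 CPM in untreated cells of the Y1F line, with overlap in both. It was at 19.1 and 19.8 CPM in treated cells, against 26.2 and 23.5 CPM in untreated cells of the T4V line, where it fell, with a log2 change of -0.35 ± 0.12 (edgeR's quasi-likelihood test, adjusted p = 0.033), a call lost without treated replicate 1, treated replicate 2 or untreated replicate 1. In the other 6 lines SNHG12 was not called, at log2 changes of -0.19 to 0.03. ZFAS1, transcribed away from the start of ZNFX1 on the other strand and host of the SNORD12 family, was at 20.8 and 14.6 CPM in treated cells, against 16.2 and 12.8 CPM in untreated cells of the degron line. It was at 28.1 and 25.7 CPM in treated cells, against 20.6 and 21.6 CPM in untreated cells of the S2A line, where the treated libraries lay above, as they did in Y1F and S5A. ZFAS1 was called in 0 of 7 lines, with log2 changes of -0.19 (S7A) to 0.42 (S5A) and standard errors of 0.25 or 0.26, the widest of the 10. Its positive values in the degron line, Y1F, S2A, T4V and S5A were all negative under both other scalings.

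All these changes are relative to each library's other poly(A) RNA, and the scaling sets their zero. The factors behind the authors' deposited fold changes, which were recovered from their base means, put the summed scaled counts of treated libraries at 56.4% of those of untreated libraries in the degron line, 51.2% in Y1F, 71.5% in the S2A line, 75.4% in T4V, 49.7% in the S5A line, 56.1% in S7A and 84.3% in WT. With these factors the median change of the 10 hosts was -1.57 (log2) in the degron line, -1.94 in Y1F, -0.81 in the S2A line, -0.98 in T4V, -1.72 in the S5A line, -1.39 in S7A and -0.57 in WT. The medians of all genes moved too, to -0.80, -0.84, -0.54, -0.42, -0.94, -0.82 and -0.20 in the same order of lines. Scaling by 13 mitochondrial mRNAs gave member medians of -1.19, -1.43, -0.79, -1.10, -1.51, -0.95 and -0.58, beside all-gene medians of -0.42, -0.30, -0.50, -0.54, -0.70, -0.38 and -0.17. The share of all genes called lower was 62.6%, 62.1%, 45.0%, 34.5%, 64.8%, 63.4% and 1.7% with the authors' factors and 42.5%, 36.7%, 46.1%, 48.3%, 56.8%, 38.3% and 9.5% with mitochondrial scaling, again in that order. Under both scalings 8 to 10 hosts fell in each of the 6 lines other than WT, 5 or 6 fell in WT, and 0 rose in any line.

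**Figure D3:**
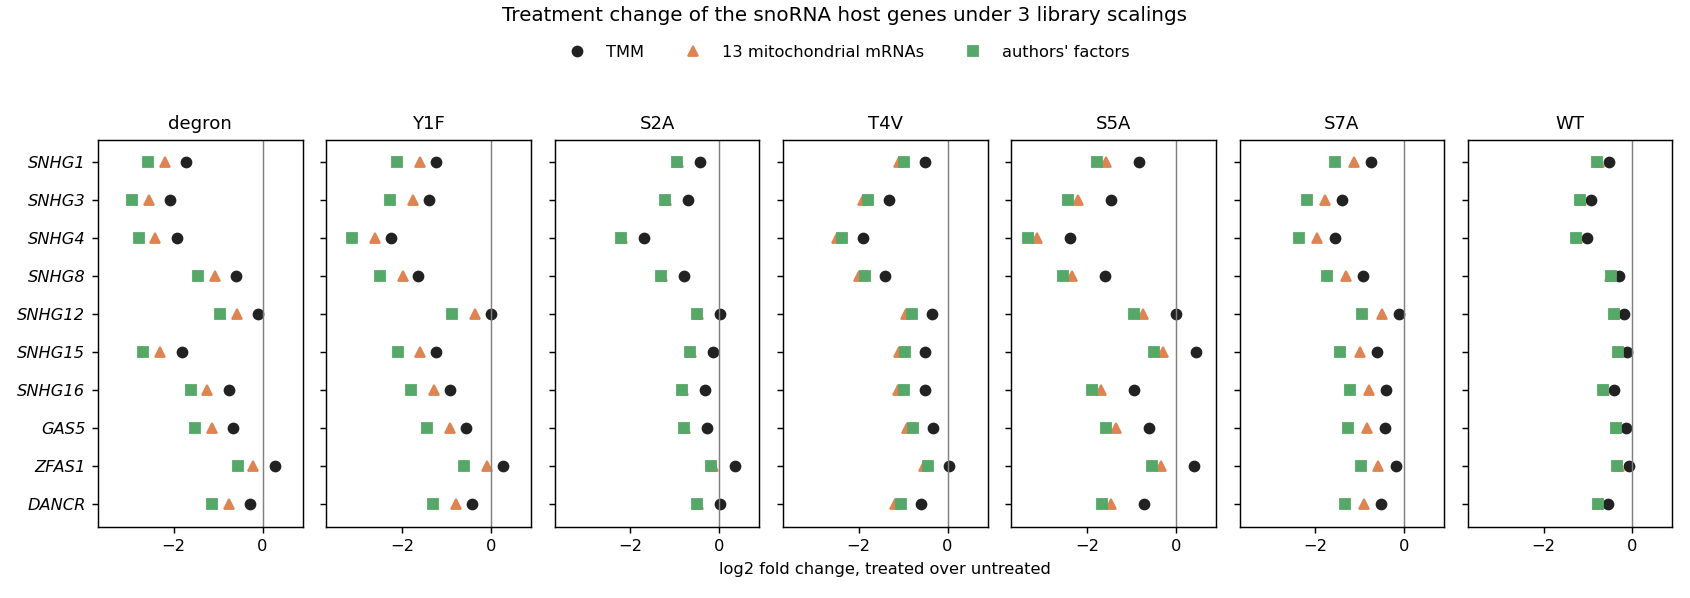
Log2 fold change (treated over untreated) of each host gene in each line under TMM (circles), 13 mitochondrial mRNAs (triangles) and the authors' factors (squares). All triangles and squares lie at or left of the circles, and SNHG15 in S5A is at 0.46 under TMM, -0.28 under mitochondrial mRNAs and -0.50 under the authors' factors.

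In the authors' deposited table, all 70 log2 fold changes of the 10 hosts over 7 lines were negative. At an adjusted p under 0.05 in the authors' deposited table, 9 hosts were lower in the degron line, 10 in Y1F, 9 in the S2A line, 9 in T4V, 10 in the S5A line, 10 in S7A and 0 in WT. Among genes given an adjusted p, the shares lower in the authors' deposited table were 47.1%, 49.5%, 39.7%, 32.8%, 49.0%, 47.8% and 0.0% in the same order. ZFAS1 was the host not called in the degron, S2A and T4V lines of the authors' deposited table. SNHG3 had a log2 fold change of -2.94 in the degron line and SNHG15 one of -0.49 in the S5A line in the authors' deposited table.

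Whether a mutant's response differed from that of the WT line was tested as a difference in log2 change; the 5 mutants share the WT libraries, so these tests are not independent. In the Y1F line 5 of 10 hosts fell further than in WT, where 9.73% of all genes differed in either direction and 6.31% fell further. SNHG4 differed by -1.23 ± 0.23 (edgeR's quasi-likelihood test, Benjamini-Hochberg adjusted p = 0.0018), from log2 changes of -2.25 in Y1F and -1.01 in WT. SNHG15 differed by -1.12 ± 0.19 (edgeR's quasi-likelihood test, adjusted p = 0.00082), from -1.23 in Y1F and -0.11 in WT. Both kept their calls under all 16 alternatives, of which 8 leave out 1 library each. SNHG8 (-1.32 ± 0.33), SNHG1 (-0.71 ± 0.18) and SNHG16 (-0.49 ± 0.12) were also called, each under 13 of 16 alternatives. Without WT treated replicate 2 SNHG8 was at -0.87 and not called (adjusted p = 0.13 by edgeR's quasi-likelihood test), nor was it without WT untreated replicate 2 (-1.28) or Y1F treated replicate 1 (-1.33). SNHG1 lost its call without WT untreated replicate 2 (-0.71), Y1F treated replicate 1 (-0.70) or Y1F untreated replicate 2 (-0.59), and SNHG16 without the first of these (-0.47) or the second (-0.50). The member median of the difference was -0.48, and that of all genes -0.01.

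In the S5A line 6 hosts differed from WT, where 18.1% of all genes did: 5 fell further (11.7% of all genes) and SNHG15 moved upward (6.4% of all genes). SNHG4 differed by -1.36 ± 0.24 (edgeR's quasi-likelihood test, adjusted p = 0.00045) and SNHG16 by -0.52 ± 0.12 (adjusted p = 0.0054), both under all 16 alternatives. SNHG8 differed by -1.28 ± 0.34 and lost its call without WT treated replicate 2 (-0.83). SNHG3 (-0.54 ± 0.17), GAS5 (-0.46 ± 0.14) and SNHG15 (0.57 ± 0.19) were called by small margins. Leaving out any of 7 of the 8 libraries ended each call, the exception being WT treated replicate 1 for GAS5 and WT treated replicate 2 for SNHG3 and SNHG15, with differences of -0.60 to -0.48 for SNHG3, -0.50 to -0.38 for GAS5 and 0.42 to 0.62 for SNHG15. With mitochondrial scaling SNHG15 came to 0.04. The member median of the difference was -0.37, and that of all genes -0.03.

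For S2A, T4V and S7A the counts of hosts that differed from WT were 1, 1 and 0. In S2A 1 host differed from WT, where 7.53% of all genes did: DANCR, by 0.58 ± 0.14 (edgeR's quasi-likelihood test, adjusted p = 0.013), called under 11 of 16 alternatives and lost without S2A treated replicate 2 (0.58), S2A untreated replicate 2 (0.51) or WT untreated replicate 1 (0.54). In T4V 1 host differed, where 3.7% of all genes did: SNHG4, by -0.89 ± 0.23 (edgeR's quasi-likelihood test, adjusted p = 0.039), lost without any of 6 libraries, all but T4V untreated replicate 1 and WT treated replicate 2, at -0.94 to -0.64, and with both Mock libraries left out (-0.90). Under mitochondrial scaling 5 hosts fell further in T4V than in WT, as 10.6% of all genes did and with an all-gene median of -0.39: SNHG8, SNHG4, SNHG15, SNHG3 and GAS5. In S7A 0 hosts differed by edgeR's quasi-likelihood test, where 0.821% of all genes did, and 0 by DESeq2's Wald test. By the first test 4 hosts had an unadjusted p under 0.05. The share of all genes with such an unadjusted p was not counted, so these 4 have no reference. Whether 1 mutant differed from another was not tested.

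The WT complement was compared with no complement in the same way. Of the 10 hosts 5 fell less in the WT line than in the degron line, where 12% of all genes differed and 8.24% lay higher in WT. SNHG15 differed by 1.71 ± 0.19 (edgeR's quasi-likelihood test, adjusted p = 4.9e-06), from log2 changes of -0.11 in WT and -1.82 in the degron line. SNHG1 differed by 1.19 ± 0.18 (edgeR's quasi-likelihood test, adjusted p = 0.00012), and SNHG3 by 1.14 ± 0.17 (adjusted p = 8.6e-05). These 3 were called under all 16 alternatives. SNHG4 (0.91 ± 0.23) lost its call without degron treated replicate 2 (0.74), degron untreated replicate 2 (0.77) or WT untreated replicate 1 (0.87), and GAS5 (0.51 ± 0.13) without degron treated replicate 1 (0.50), WT treated replicate 2 (0.43), WT untreated replicate 1 (0.52) or WT untreated replicate 2 (0.51). DANCR differed in the other direction by -0.28 ± 0.14, not called (adjusted p = 0.21 by edgeR's quasi-likelihood test). The member median of the difference was 0.42, and that of all genes 0.01. Dox was given to the WT line only, so its part cannot be told apart from that of the complement.

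**Figure D4:**
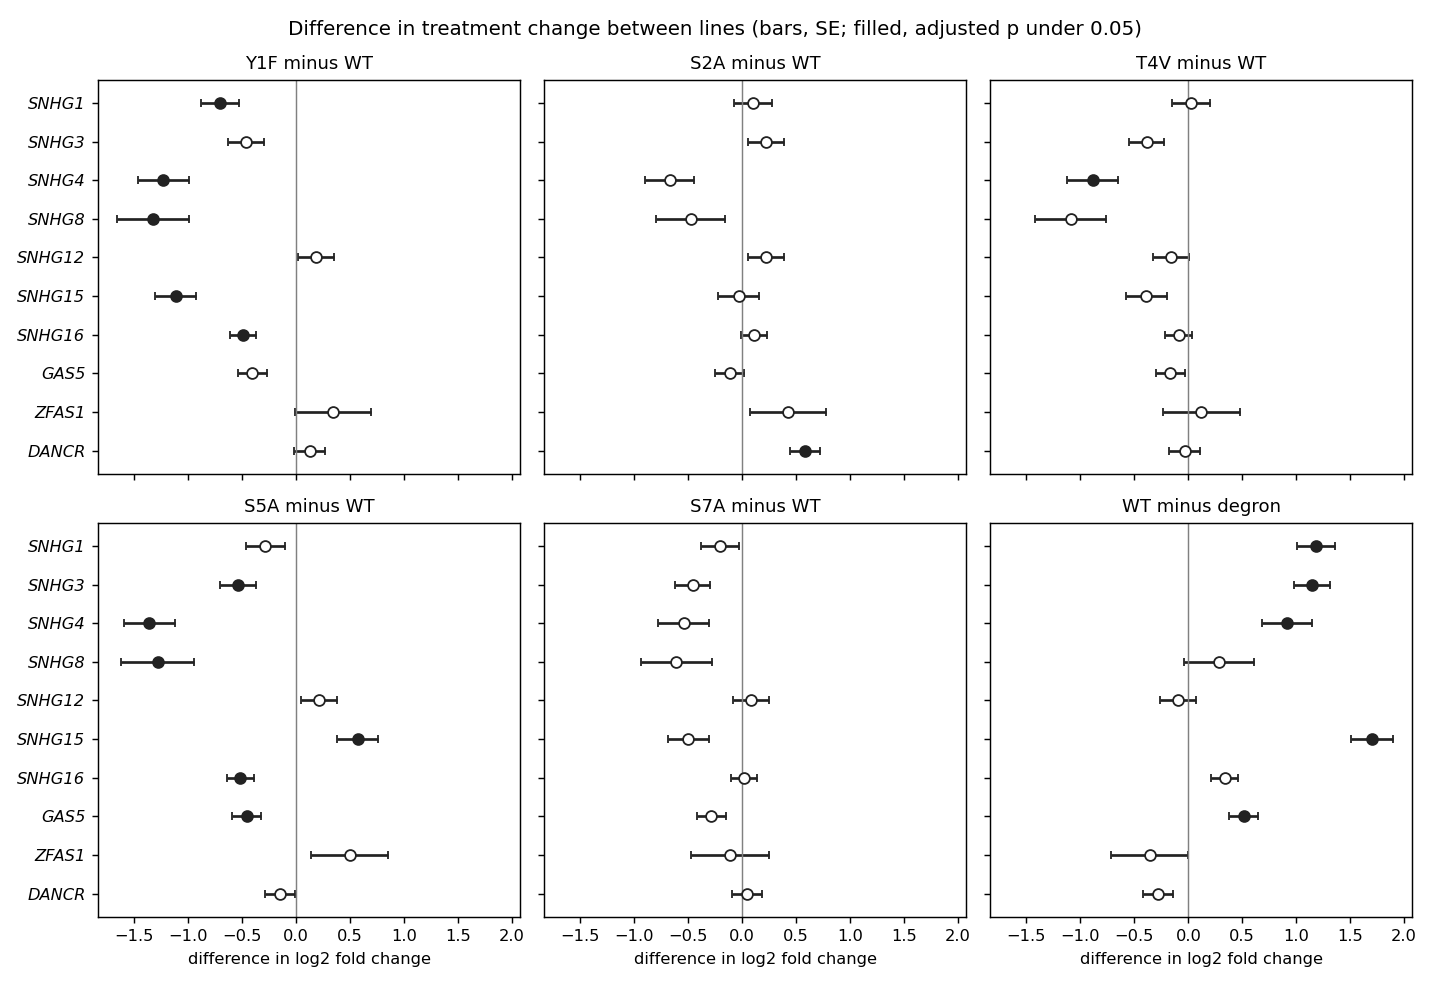
Difference in log2 change of each host gene, each mutant minus WT and WT minus degron line, with bars of 1 standard error; filled points passed an adjusted p under 0.05. SNHG4 lies left of 0 in all 5 mutants, at -1.36 in S5A, and SNHG15 is at 1.71 in WT minus degron line.

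The lines already differed before treatment. Untreated degron cells had higher levels of 6 hosts and a lower level of 1 than Mock, where 33.4% of all genes were higher and 31.4% lower. GAS5 was at 205 and 205 CPM in untreated degron cells, against 100.1 and 92.5 CPM in Mock, a difference of 1.09 ± 0.10 on the log2 scale. ZFAS1 was at 16.2 and 12.8 CPM in untreated degron cells, against 44.4 and 43.5 CPM in Mock, a difference of -1.59 ± 0.25. SNHG15 (1.00), DANCR (0.72), SNHG3 (0.64), SNHG1 (0.57) and SNHG16 (0.45) were also higher. The marker genes above differ between the same libraries, and line and degron cannot be told apart.

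Untreated S2A cells had 6 hosts higher than untreated degron cells and 0 lower, where 18.3% of all genes were higher and 18% lower. SNHG12 was at 42.6 and 42.03 CPM in untreated S2A cells, against 16.9 and 17.1 CPM in untreated degron cells, a difference of 1.31 ± 0.12 on the log2 scale (edgeR's quasi-likelihood test, adjusted p = 2e-08). SNHG8 (0.83), DANCR (0.77), SNHG16 (0.52), SNHG4 (0.48) and SNHG15 (0.37) were the others, and 4 hosts were called without any 1 of the 4 libraries: SNHG15 lost its call in each of these fits, SNHG4 in 3 and SNHG8 without degron untreated replicate 2. SNHG12, which was called after treatment in T4V alone, was also higher than in the degron line in untreated Y1F (0.59, the 1 host of 10 called, where 4.31% of all genes were higher), T4V (0.55), S5A (0.73) and WT (0.38, the 1 host called, where 3.83% of all genes were higher, and lost in every fit that left out 1 library). In untreated T4V 1 host was higher and 2 lower, SNHG1 (-0.51) and GAS5 (-0.37), where 5.69% of all genes were higher and 7.6% lower. In untreated S5A 1 was higher and 3 lower, SNHG1 (-0.48), GAS5 (-0.32) and SNHG16 (-0.27), where 5.77% were higher and 6.98% lower. Under mitochondrial scaling these 3 were at -0.16, 0.0035 and 0.053 in S5A, and SNHG1 and GAS5 at -0.32 and -0.18 in T4V, with none called. In untreated S7A 1 was higher, DANCR (0.40), and 3 were lower, SNHG1 (-0.83), SNHG3 (-0.34) and SNHG16 (-0.26), where 8.42% were higher and 10.3% lower. These counts were small without 1 library: 1 in T4V without degron untreated replicate 2 or T4V untreated replicate 1, 1 in S5A without degron untreated replicate 2, S5A untreated replicate 1 or S5A untreated replicate 2, and 2 in S7A without degron untreated replicate 2, S7A untreated replicate 1 or S7A untreated replicate 2. For the fits that left out 1 library the shares of all genes are not given here. These 6 comparisons share the untreated degron libraries.

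Other host genes gave a point of reference. Of 16 tested noncoding hosts outside the 10, 3 rose and 5 fell in the degron line, 1 rose and 4 fell in Y1F, 3 and 2 in S2A, 1 and 5 in T4V, 4 and 5 in S5A, 2 and 4 in S7A, and 0 and 0 in WT. Of all genes tested, 23.1% rose and 21.4% fell in the degron line, 23.1% and 21% in Y1F and 17% and 18.2% in S2A. The shares were 14.8% and 14% in T4V, 25.5% and 24.2% in S5A, 17.8% and 17.1% in S7A and 3.09% and 1.84% in WT. In the degron line SNHG20 (-1.52 on the log2 scale), SNHG7 (-1.49) and SNHG17 (-1.28) fell, and SNHG22 rose (1.58 ± 0.56). SNHG14 rose in S7A (4.72 ± 1.49) and S5A (2.34 ± 0.87), with wide standard errors. SNHG5, a host of box C/D snoRNAs, rose in 5 lines, Y1F (2.03), S5A (1.58), S2A (1.23), T4V (0.95) and S7A (0.68). It stayed called upward in Y1F, S5A and S2A under mitochondrial scaling (1.68, 0.84 and 0.73) and under the authors' factors (1.15, 0.63 and 0.71). In T4V (0.36 and 0.47) and S7A (0.29 and -0.13) it was called under neither. The median log2 change of the 16 was -0.25, -0.11, 0.12, -0.38, -0.13, -0.10 and -0.04 in the degron, Y1F, S2A, T4V, S5A, S7A and WT lines; under both scalings it was negative in all 7. In that order of lines 10, 12, 6, 8, 11, 10 and 0 of 15 tested fell under the authors' factors, with 1 riser each in Y1F, S2A and S5A. Under mitochondrial scaling 8, 8, 6, 9, 9, 8 and 2 of 16 fell, with 1 riser in every line but T4V. Of all genes 62.6%, 62.1%, 45.0%, 34.5%, 64.8%, 63.4% and 1.7% fell under the authors' factors. Under mitochondrial scaling 42.5%, 36.7%, 46.1%, 48.3%, 56.8%, 38.3% and 9.5% of all genes did.

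Of 25 protein-coding hosts, 14 fell and 1 rose in the degron line, 15 and 2 in Y1F, 8 and 2 in S2A, 9 and 1 in T4V, 16 and 3 in S5A, 11 and 0 in S7A, and 8 and 0 in WT. In the degron line RABGGTB, a prenylation enzyme gene, fell by 2.06 on the log2 scale, the translation factor gene EIF4A1 by 1.37 and the chaperone gene HSPA8 by 1.31. HSPA8 fell by 1.84 in S5A. Of the 25, those that fell under the authors' factors numbered 24, 22, 19, 19, 23, 24 and 3 in the degron, Y1F, S2A, T4V, S5A, S7A and WT lines, and under mitochondrial scaling 21, 21, 20, 24, 22, 21 and 14, with no riser but 1 in Y1F under the second. Of the 21 ribosomal protein hosts, which share the 5′TOP motif, 3 rose and 1 fell in the degron line, 0 and 1 in Y1F, 6 and 0 in S2A, 2 and 0 in T4V, 1 and 1 in S5A, 0 and 1 in S7A, and 0 and 0 in WT, with medians of -0.04 to 0.22. Their direction turned with the scaling, to medians of -0.92 to -0.09 with the authors' factors and of -0.65 to -0.09 with mitochondrial mRNAs, with 0 risen in any line under either; 21, 21, 0, 0, 21, 21 and 0 fell under the authors' factors and 6, 15, 4, 20, 21, 7 and 1 under mitochondrial scaling. Beside both lists, 21.4%, 21%, 18.2%, 14%, 24.2%, 17.1% and 1.84% of all genes tested fell under TMM, in that order of lines. The shares that rose were 23.1%, 23.1%, 17%, 14.8%, 25.5%, 17.8% and 3.09%. Under the authors' factors 62.6%, 62.1%, 45.0%, 34.5%, 64.8%, 63.4% and 1.7% of all genes fell. With mitochondrial mRNAs the shares that fell were 42.5%, 36.7%, 46.1%, 48.3%, 56.8%, 38.3% and 9.5%. Both lists were chosen with earlier results of these data known.

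Genes of the pathways around the hosts were counted too. Of 19 genes for snoRNP proteins and their assembly factors, 6 fell and 1 rose in the degron line, 8 and 1 in Y1F, 2 and 1 in S2A, 2 and 1 in T4V, 7 and 1 in S5A, 8 and 1 in S7A, and 2 and 0 in WT. GAR1, a protein of box H/ACA particles, fell in 6 lines, at -1.48 in S5A, -1.19 in Y1F and -1.01 in the degron line on the log2 scale. Those that fell under the authors' factors numbered 18, 19, 14, 10, 19, 19 and 0 in the same order of lines, and under mitochondrial scaling 15, 17, 14, 17, 19, 15 and 7, with 0 risen. DKC1, the pseudouridine synthase of those particles and itself a host, fell by 0.36 in WT and by 1.01 in S5A. Of 14 nonsense-mediated decay factors, 9 fell and 2 rose in the degron line, 7 and 2 in Y1F, 3 and 2 in S2A, 3 and 1 in T4V, 7 and 0 in S5A, 5 and 2 in S7A, and 0 and 0 in WT. Of these 14, 13, 13, 11, 8, 14, 13 and 0 fell under the authors' factors and 10, 10, 10, 12, 14, 7 and 1 under mitochondrial scaling, with no riser but 1 in S2A under the second. Beside both lists, 21.4%, 21%, 18.2%, 14%, 24.2%, 17.1% and 1.84% of all genes tested fell under TMM, in that order of lines. The shares that rose were 23.1%, 23.1%, 17%, 14.8%, 25.5%, 17.8% and 3.09%. Under the authors' factors 62.6%, 62.1%, 45.0%, 34.5%, 64.8%, 63.4% and 1.7% of all genes fell. With mitochondrial mRNAs the shares that fell were 42.5%, 36.7%, 46.1%, 48.3%, 56.8%, 38.3% and 9.5%. SMG9, a partner of the UPF1 kinase SMG1, fell by 2.33 in the degron line. SMG8 rose there by 0.61 under TMM, but was not called under mitochondrial scaling (0.13) or the authors' factors (-0.24). NOLC1, the 1 riser of the snoRNP list in the degron line, had values of 0.11 and -0.27 there under those scalings.

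The snoRNAs themselves lack poly(A) tails and were mostly outside this assay: of the 37, 26 are listed in the count tables, 18 of these at 0 in all 30 libraries. SNORA73B, 1 of the U17 snoRNAs inside SNHG3, was the only one tested, with 419 counts in all. Its sequence is shown because it is the product that this host carries; the box ACA, which lies 3 bases before the end of H/ACA snoRNAs, is in capitals.
SNORA73B, chr1:28508559-28508762, plus strand, GENCODE 29 transcript on GRCh38: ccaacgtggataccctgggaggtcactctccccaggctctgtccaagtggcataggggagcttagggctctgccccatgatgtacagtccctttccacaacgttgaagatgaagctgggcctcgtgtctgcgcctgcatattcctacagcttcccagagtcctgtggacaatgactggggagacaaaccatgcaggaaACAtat
It had 4 and 3 counts in treated degron libraries, against 37 and 33 in untreated degron libraries, with no overlap. SNORA73B fell by 3.55 ± 0.41 on the log2 scale in the degron line (edgeR's quasi-likelihood test, adjusted p = 5.6e-07) and by 1.5 ± 0.43 in WT (adjusted p = 0.048), and its log2 changes were -2.22 in S7A, -1.51 in Y1F, -1.26 in S5A, -0.91 in S2A and -0.04 in T4V, the 1 line not called. Reads of unspliced SNHG3 also cover these bases, so snoRNA and host cannot be told apart here.

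Whether reads were assigned to genes by strand is not stated, so values of overlapping genes are uncertain, and the neighbours' own changes are set beside those of the hosts. RCC1, a chromatin-bound exchange factor gene whose span holds all of SNHG3 on the same strand and starts 37 bases before it, fell in 6 lines, with log2 changes of -0.94 ± 0.13 in the degron line and -1.61 ± 0.13 in S5A; in WT its log2 change was -0.37 ± 0.13, not called. MATR3, which overlaps SNHG4 on the same strand, was called in 0 lines. Its log2 changes were imprecise, from -0.49 ± 0.39 in WT to 0.48 ± 0.37 in the degron line. SIL1, which overlaps SNHG4 on the other strand, fell in S5A (-0.59 ± 0.15). SLC3A2, which starts 188 bases from SNHG1 on the other strand, fell in the degron line (-0.41 ± 0.15) and S5A (-0.44 ± 0.15). ZBTB37, which overlaps the start of GAS5 on the other strand, fell in the degron line (-1.07 ± 0.21), Y1F (-0.94 ± 0.21) and S7A (-0.86 ± 0.21). ZNFX1, which overlaps the start of ZFAS1, rose in the degron line (0.39 ± 0.12; -0.09 under mitochondrial scaling, -0.47 under the authors' factors) and fell in S2A and T4V. TRNAU1AP, which meets the end of SNHG12 on the other strand, rose in the degron line (0.35 ± 0.09), S5A (0.28 ± 0.09) and Y1F (0.23 ± 0.09); under mitochondrial scaling it was at -0.13, -0.46 and -0.13 there, and under the authors' factors at -0.51, -0.68 and -0.65.

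Across the 15 group means of log2 CPM, the 45 pairs of hosts had Pearson correlations of -0.45 to 0.96 with a median of 0.56, given as a description because the groups share lines and scaling. SNHG3 and SNHG4 were the most alike (0.96), then SNHG1 and SNHG3 (0.94), and the lowest was GAS5 with ZFAS1 (-0.45). Over the 14 groups without Mock the range was -0.09 to 0.96 with a median of 0.61. Among 11493 other genes, those whose group means were most like the mean profile of the 10 were NAT10 (0.96), C17orf58 and TADA2A (0.94 each), and LZIC and SNHG7 (0.93 each) over 15 groups. Over the 14 groups without Mock they were KRT10-AS1 (0.97), METTL2A, NAT10 and SMIM7 (0.96 each) and METTL23 (0.95).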

How the data were processed

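Members and gene lists were chosen with earlier results of these data known, and no list is tested as a whole. Per the labels' protocols, poly(A) RNA was extracted with TRIzol and read from both ends at 150 bp; 10% of fly S2 cells were stated as spike-in, but the deposited tables list 0 fly genes, so no fly scaling was made. The deposited counts are whole reads per gene; the submitters' processing notes name Trim Galore 0.6.2, STAR 2.7.3a, featureCounts 2.0.1 and the builds hg38 and dm6. The annotation, the strand setting and the treatment of multi-mapping reads were not given in the sources used here. TPM values were deposited by the authors and are scaled for gene length and library total. For each line the authors' deposited table, for which the submitters' processing notes name DESeq2 1.24.0, lists log2 fold changes, p-values before and after adjustment, and base means. This deposited base mean is a signal that the authors made by averaging counts divided by library factors, and these factors were solved from it.

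The tests on counts were edgeR 4.0.16's robust quasi-likelihood tests with TMM scaling (limma 3.58.1, R 4.3.3), fitted with 1 coefficient per group over 30 libraries and 15 residual degrees of freedom. filterByExpr (minimum count 10, total 15) left 19982 genes. Benjamini-Hochberg adjustment ran within each of 20 comparisons (7 treatment, 6 difference in change, 7 untreated), and genes at an adjusted p under 0.05 are those said to have risen or fallen. Standard errors are the log2 change over the square root of F. The fit was also run on simulated counts in which 200 genes were made to change, and the outcome is not given here. A host was named in every comparison; from each further list at most 4 genes with the largest called change were named per line, and the text prints part of these. The alternatives tried were the size factors of DESeq2 1.42.0, the Wald test of the same package, 13 mitochondrial mRNAs or the authors' factors as the scale, no filter, a mean of at least 5 CPM, a replicate block, a line's own 4 libraries, limma on log2(TPM + 0.1), direct comparison of treated libraries, and leaving out each library; the Mock libraries left out and a crossed block were added after the data were seen. Libraries of a group differed by more than sampling noise (chi-square over its degrees of freedom, 1.29 to 27.7), so none were merged. Of the gene IDs 56659 matched GENCODE 29. Promoters and snoRNA positions are from RefSeq (GRCh38.p14); 9 of the 10 symbols matched the promoter table, all but SNHG15. Python 3.11.15, numpy 2.4.6, pandas 2.3.3 and matplotlib 3.10.9 were used.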

Additional observations from a re-analysis of the deposited data

Results flagged for a closer look

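In 18 cases a host's change differed between 2 lines by a test of the difference itself (edgeR's quasi-likelihood test, Benjamini-Hochberg adjusted p under 0.05; log2 scale, first line minus second). Between WT and the degron line these were SNHG15 (1.71), SNHG1 (1.19), SNHG3 (1.14), SNHG4 (0.91) and GAS5 (0.51), each with the smaller loss in WT. Between Y1F and WT they were SNHG8 (-1.32), SNHG4 (-1.23), SNHG15 (-1.12), SNHG1 (-0.71) and SNHG16 (-0.49), each with the larger loss in Y1F. Between S5A and WT they were SNHG4 (-1.36), SNHG8 (-1.28), SNHG3 (-0.54), SNHG16 (-0.52) and GAS5 (-0.46), with the larger loss in S5A, and SNHG15 (0.57), with the higher change in S5A. DANCR differed between S2A and WT (0.58) and SNHG4 between T4V and WT (-0.89). The comparisons with WT share its 4 libraries, and 1 of them, WT treated replicate 2, had 32.3 CPM of SNHG8 beside 18.5 CPM in replicate 1.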

How the results depend on the processing

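With 2 libraries a group, calls near the threshold moved with the setting; the causes were not tested unless fewer libraries or more genes tested are named. In the lines' own 4 libraries, with fewer samples behind the spread, hosts that fell numbered 4 in T4V, 5 in S7A and 0 in WT. In S2A 1 host rose and in S5A 2. In these fits 9.0%, 8.4% and 0.0% of all genes fell in T4V, S7A and WT. The shares that rose were 29.4% in S2A and 36.7% in S5A. In S5A 0 hosts rose under mitochondrial scaling and 0 under the authors' factors, where 10.6% and 9.0% of all genes rose. Without the low-count filter, which tests more genes, hosts whose change differed from WT numbered 0 in S2A, 3 in S5A and 2 in T4V, and untreated hosts that differed from the degron line 2 in S5A, 1 in S7A and 0 in WT. Of the 45744 genes tested there, 1226, 3471 and 1036 differed from WT in S2A, S5A and T4V. In untreated S5A, S7A and WT 2398, 3414 and 2100 differed from the degron line. For T4V against WT the count was 2 by DESeq2's Wald test, 2 at a mean of at least 5 CPM, 5 under mitochondrial scaling and 0 without Mock, a setting chosen after seeing the data, which also gave 2 in untreated S5A. Of all genes, 1253 of 19982 differed by DESeq2's Wald test, 1077 of 11638 at 5 CPM and 2147 of 19982 under mitochondrial scaling. Without Mock 644 of 19219 did, and 2499 in untreated S5A. DESeq2's Wald test and the mean of at least 5 CPM gave 5 each in untreated T4V, and a mean of at least 5 CPM gave 2 in untreated WT. By these settings in turn 2605 of 19982 and 2174 of 11638 genes differed in untreated T4V. In untreated WT 1698 of 11638 differed at 5 CPM. Treated libraries compared directly differed from WT in 5 hosts in S2A, 6 in S7A, 4 in T4V and 8 in Y1F. Of all 19982 genes tested, 7975, 5092, 4041 and 5781 differed there in the same order. This comparison also holds the differences between untreated lines.

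Replicate numbers did not pair the samples (correlation of deviations -0.31 to 0.24 in the 7 lines). With the replicate block 7 hosts fell in the degron line and 0 differed in untreated WT; the crossed block, chosen after seeing the data, gave 8 fallen in the degron line, 8 in Y1F and 5 in WT. Leaving out 1 library gave 6 to 8 fallen in the degron line, 8 in Y1F, 3 to 5 in S2A, 7 to 8 in T4V, 7 in S5A with 0 to 1 risen, 6 to 8 in S7A and 3 to 5 in WT. It gave 3 to 5 differences for WT against the degron line, 2 to 6 for Y1F, 0 to 2 for S2A, 0 to 1 for T4V, 3 to 4 for S5A and 0 for S7A, and in untreated lines 7 for the degron line against Mock, 1 in Y1F, 4 in S2A, 1 to 4 in T4V, 1 to 2 in S5A, 2 to 3 in S7A and 0 in WT. The shares of all genes in the fits without 1 library are not given here.

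Of values called under at least 1 of the settings compared, the sign turned under the authors' factors and mitochondrial mRNAs for DANCR in S2A (-0.49 and -0.47), SNHG12 in S2A (-0.49 and -0.47) and S5A (-0.94 and -0.73) and SNHG15 in S5A (-0.50 and -0.28), for ZFAS1 in Y1F under the authors' factors (-0.61), and in untreated S5A under mitochondrial mRNAs for GAS5 (0.0035) and SNHG16 (0.053). A further 121 of the 2730 values, called in neither setting, also changed sign, among them ZFAS1 in 5 lines. With these 121 included, 938 treatment values stayed on their side of the threshold, 52 lost and 11 gained a call; for the differences the numbers were 863, 58 and 39, and for the untreated values 682, 57 and 19.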
